A study of Mus musculus with 6 samples.

Results

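The genes described here are 45 members of the signalling system of transforming growth factor β (TGF-β), bone morphogenetic proteins (BMPs) and activins, out of 31115 genes in the deposited table. They were taken by name from a list of ligands, receptors, antagonists, SMAD proteins and direct target genes, and each name matched 1 row of the table. RNA was measured by sequencing at day 2 in 6 libraries that the labels give as neonatal mouse cardiomyocytes, heart muscle cells of newborn mice, kept in ordinary culture with serum. Of these, 3 libraries are labelled Ad-scramble and 3 are labelled Ad-SPTBN1 with a genotype of βII spectrin overexpression. The labels leave the constructs, the strain and the purity of the cells undescribed. They also leave unsaid whether replicates were separate cultures, and p-values then measure only the spread among these 6 libraries, possibly technical.

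Ligands of this family bind pairs of type I and type II receptor kinases at the cell surface. The activated type I receptor phosphorylates SMAD proteins, Smad2 and Smad3 for TGF-β and activin and Smad1, Smad5 and Smad9 for BMPs, which join Smad4 and enter the nucleus. Secreted antagonists, inhibitory SMADs, ubiquitin ligases and co-repressors restrain the signal at each step. In the heart the system is known for its part in valve and septum formation, in the change of fibroblasts into myofibroblasts, and in the deposition of matrix. βII spectrin, encoded by Sptbn1, has been described in mouse as an adaptor that helps bring Smad3 and Smad4 together.

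The recovered reads in genes ranged from 18775310 to 19638646 per library. In each library this sum lay above the total fitted in recovering the reads (18223094 to 19062888), so it is an approximate depth. Sptbn1 went against the label, with 50.8, 48.3 and 50.1 FPKM (fragments scaled to gene length and library size) under the label Ad-scramble and 16.1, 16.5 and 15.7 FPKM under the label Ad-SPTBN1. It fell by 1.57 on the log2 scale (SE 0.03, limma adjusted p = 2.72e-06). Whether a construct gave transcripts outside the mouse gene model was not tested. Each direction below compares the libraries by label, Ad-SPTBN1 against Ad-scramble, and would turn if the labels were exchanged. The defining genes of heart muscle were present at low levels: the most abundant of 16 cardiomyocyte markers was Myl7, at 23.7 FPKM under the label Ad-scramble, against 2078 FPKM for the fibroblast marker Col1a1 and 1629 FPKM for the smooth muscle marker Acta2, and 5 of the 16 were below 1 FPKM. Of 11 tested cardiomyocyte markers 7 rose and 0 fell, and their list's summed level was 89.5 to 96.4 FPKM in one group and 142.5 to 148.1 FPKM in the other. The mean of Actc1 went from 21.3 to 46.2 FPKM and that of Myl7 from 23.7 to 26.3 FPKM. Of 15 fibroblast markers 1 rose and 8 fell (summed levels 4891 to 5231 and 5100 to 5347 FPKM), and of 14 smooth muscle and pericyte markers 1 rose and 6 fell (1954 to 1978 and 1902 to 1931 FPKM). Such sums follow the most abundant genes: mean Col1a1 was at 2078 and 2402 FPKM in the 2 groups, and Col3a1 at 864 and 796 FPKM. Of 14 endothelial markers 0 passed the limma test and 2 had an unadjusted p under 0.05 (157.6 to 165.9 and 166.2 to 171.7 FPKM), and 5 of 9 tested epicardial markers rose (245.1 to 254.3 and 271.5 to 274.3 FPKM). Macrophage markers were low (13.4 to 13.7 and 13.0 to 13.8 FPKM). No gene of the deposited table was at 0 in all 6 libraries, so a marker above 0 does not by itself show that a cell type was present. The part of these cell types in the results below was not tested, and in whole cultures fewer cells of a type and less RNA per cell cannot be told apart.

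Among the members, the activin subunit Inhba, the ubiquitin ligase Smurf1, the activin-binding protein Fst and the SMADs Smad2, Smad3 and Smad4 rose. The ligands Tgfb3 and Bmp4, the receptors Tgfbr3 and Bmpr1a, the follistatin-like gene Fstl1, the inhibitory Smad6 and the target genes Id2 and Id3 fell. The other 30 tested members did not pass, and Acvr2b, with a mean under 1 FPKM, was not tested. The test was limma on log2(FPKM + 1) over 12608 genes, those averaging 1 FPKM or more. A call is a Benjamini-Hochberg adjusted p under 0.05, and differences on this scale understate the change of low genes. Of the 44 tested members 14 (31.8%) were called, 6 higher and 8 lower. By unadjusted p under 0.05, 22 of the 44 members and 3394 of all 12608 tested genes passed. Of all tested genes 11.0% were called, 5.54% higher and 5.50% lower. The members were chosen with earlier results of these data known, so the shares in this paragraph are description only. The members were more abundant than most genes, with a median level of 23.4 FPKM against 6.57 FPKM, and their median standard error was 0.04 on the log2 scale against 0.06. Where the mean was 5 FPKM or more, 15.1% of all 7359 and 31.7% of the 41 members were called. The groups did not overlap in 23 members (52.3%), against 32.3% of all tested genes. The median log2 difference of the members was -0.04, beside 0.00 over all tested genes.

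**Figure D1:**
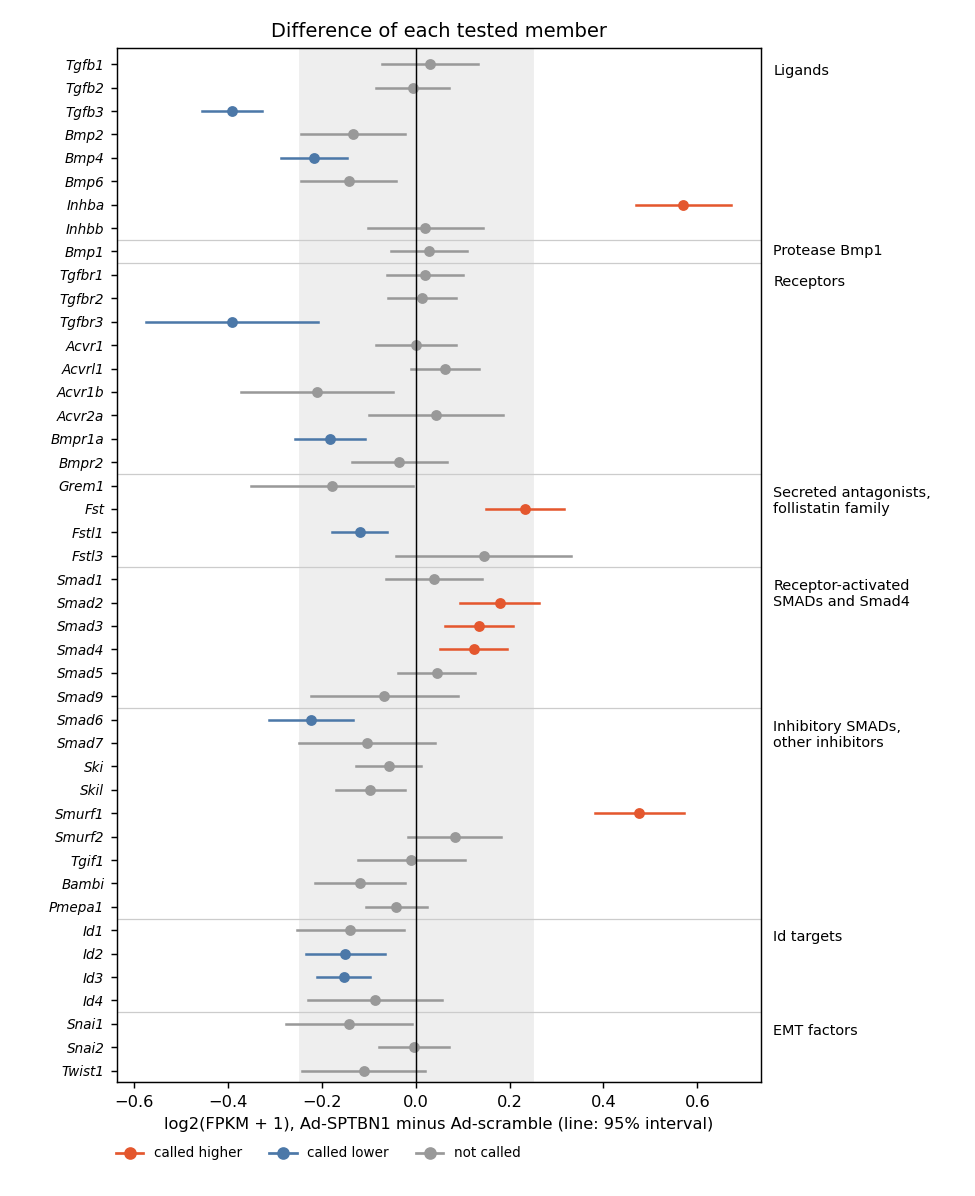
Difference between the groups on the log2(FPKM + 1) scale, Ad-SPTBN1 minus Ad-scramble, for the 44 tested members ordered by role, with points for limma estimates, lines for 95% intervals and colour for the call. The grey band spans the 5th to 95th percentile of all 12608 tested genes (-0.25 to 0.25), and Inhba, Smurf1, Tgfb3 and Tgfbr3 lie outside it.

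The changes were small, between 0.12 and 0.57 on the log2 scale in size, and 6 of the 14 calls were kept when any 1 library was left out: Inhba, Smurf1, Fst, Tgfb3, Bmp4 and Id3. With 1 library left out, 8 or 9 members were called: 9 without any 1 Ad-scramble library or without Ad-SPTBN1 replicate 1, and 8 without replicate 2 or 3 of Ad-SPTBN1. Over all tested genes the calls went from 1391 to between 622 and 864 in the same fits. A call lost with 5 libraries is thus common in these data and not particular to the members. The libraries of a group lay close together, with a coefficient of variation of 0.499% to 10.7% (median 2.75%) over the tested members and both groups. Tested members rested on 188 to 44140 recovered reads per library.

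**Figure D2:**
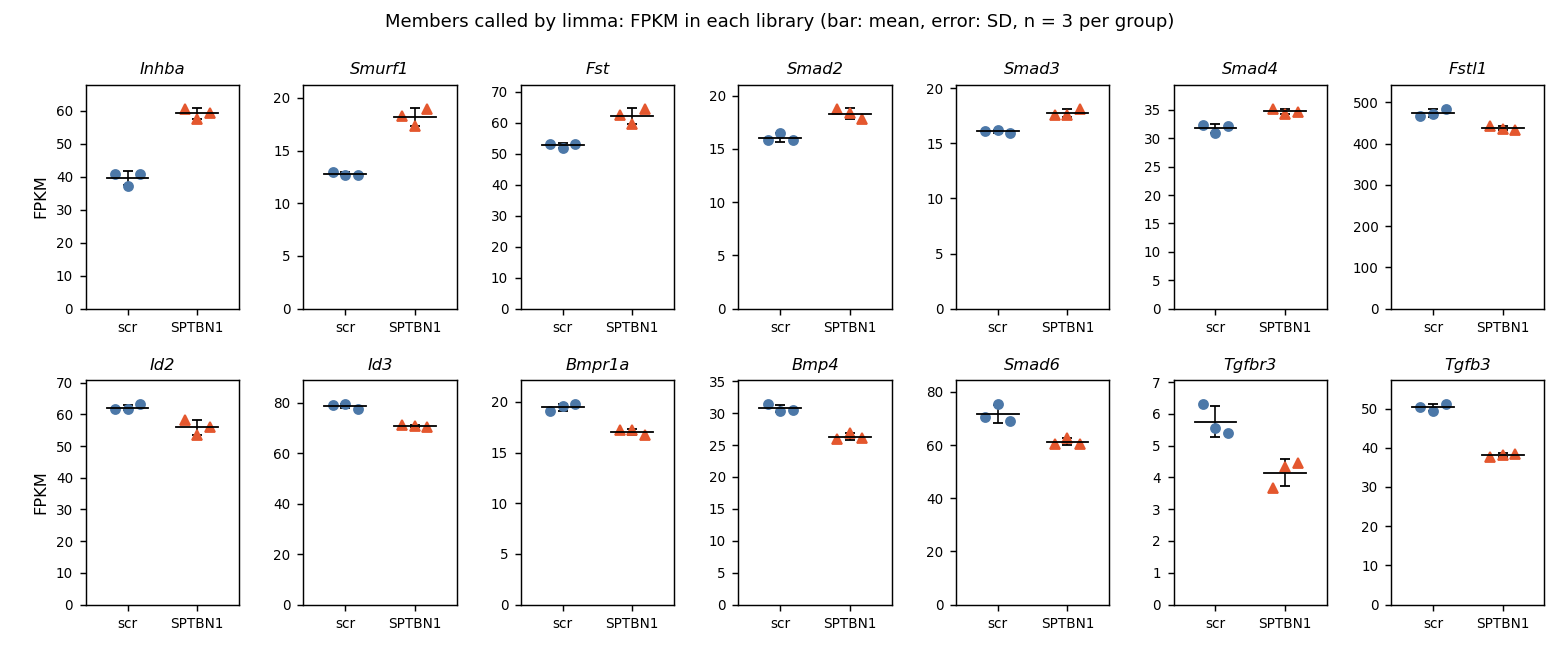
FPKM of the 14 called members in each library, with the mean as a bar and the SD as an error bar (n = 3 per group), ordered by the log2(FPKM + 1) difference from Inhba (0.57) to Tgfb3 (-0.39, as Tgfbr3); scr stands for the libraries labelled Ad-scramble and SPTBN1 for those labelled Ad-SPTBN1. In every panel the 3 circles and the 3 triangles do not overlap.

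Among the 8 ligand genes 1 rose, 2 fell and 5 were not called. Inhba (ENSMUSG00000041324, GRCm38 chromosome 13, 16011851 to 16031621, plus strand) encodes the βA subunit of activins and inhibin A. Inhba measured 40.7, 37.1 and 40.8 FPKM under the label Ad-scramble and 60.6, 57.5 and 59.3 FPKM under the label Ad-SPTBN1. The lowest of the latter lay well above the highest of the former, and the mean rose by 49.6%, which is 0.57 ± 0.04 on the log2 scale (SE, n = 3 per group, limma adjusted p = 0.00082). Inhbb, which encodes the βB subunit, measured 9.44 ± 0.562 and 9.59 ± 0.378 FPKM (SD, n = 3) and did not pass (adjusted p = 0.841).

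Tgfb3 (ENSMUSG00000021253, chromosome 12, 86056745 to 86079041, minus strand) was the most abundant of the 3 TGF-β genes under the label Ad-scramble. Tgfb3 measured 50.3, 49.5 and 51.1 FPKM there and 37.6, 38.2 and 38.5 FPKM under the label Ad-SPTBN1. The groups were far apart relative to their spread, and Tgfb3 fell by 0.39 on the log2 scale (SE 0.03, adjusted p = 0.000672). Annotated antisense genes lie opposite 12.4% of its exon bases, and since the use of strand in counting is not given, reads from both strands cannot be told apart. Tgfb1, at 33.8 ± 1.14 and 34.6 ± 1.67 FPKM, and Tgfb2, at 20.2 ± 0.363 and 20.1 ± 0.541 FPKM, did not pass. Their 95% intervals on the log2 scale ran from -0.07 to 0.13 and from -0.08 to 0.07, which leaves out a decrease of the size seen in Tgfb3. Tgfb3 made up 48.8%, 48.0% and 47.9% of the summed FPKM of the 3 genes under the label Ad-scramble and 41.8%, 40.4% and 41.1% under the label Ad-SPTBN1.

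Bmp4, a BMP of heart and vessel development, measured 31.4, 30.3 and 30.6 FPKM under the label Ad-scramble and 26.0, 26.9 and 26.1 FPKM under the label Ad-SPTBN1. The groups did not overlap, and Bmp4 fell by 0.22 (SE 0.03, adjusted p = 0.00665). Bmp2, at 38.8 ± 1.41 and 35.3 ± 1.99 FPKM, overlapped between the groups (adjusted p = 0.123). Bmp6, at 14.8 ± 0.547 and 13.3 ± 0.529 FPKM, did not overlap and did not pass (adjusted p = 0.0807). Both Bmp2 and Bmp6 passed in the fit of voom on recovered reads, with adjusted p of 0.0337 and 0.0474. Bmp1, named as a BMP but known as a protease that trims procollagens and the antagonist chordin, measured 52.0 ± 2.01 and 53.0 ± 0.887 FPKM (adjusted p = 0.649).

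**Figure D3:**
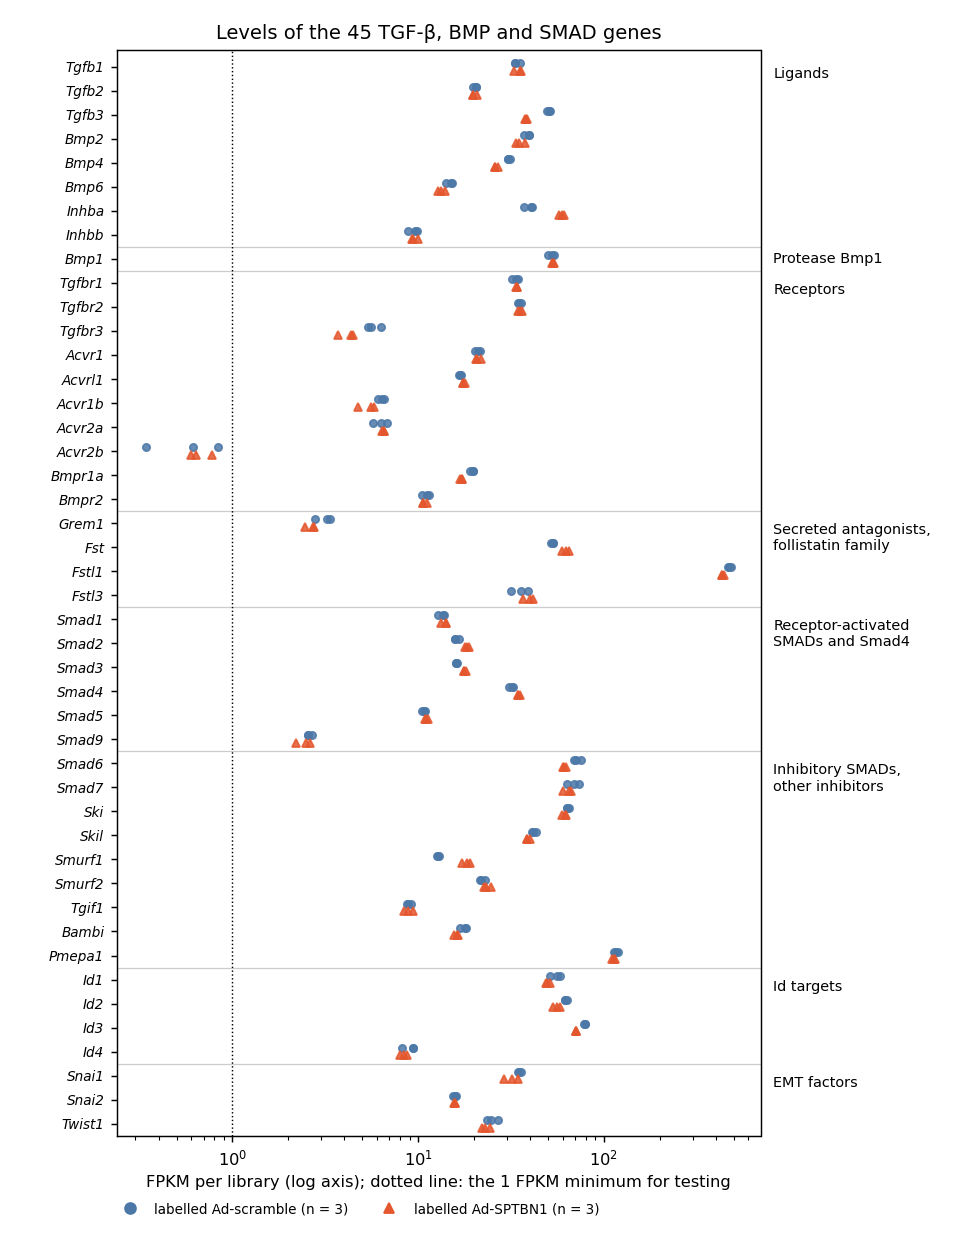
FPKM of all 45 members in each library on a log axis, by role, with circles for the libraries labelled Ad-scramble and triangles for those labelled Ad-SPTBN1. The members span from Acvr2b, below 1 FPKM in all 6 libraries, to Fstl1, at 433.3 to 484.9 FPKM.

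Of the 10 receptor genes 9 were tested, 0 rose and 2 fell. The type I and type II receptors of TGF-β itself were at nearly equal levels per length and close between groups: Tgfbr1 measured 33.4 ± 1.32 and 33.8 ± 0.231 FPKM, and Tgfbr2 35.0 ± 0.640 and 35.3 ± 0.870 FPKM. Neither passed (adjusted p = 0.769 and 0.834), with 95% intervals of -0.06 to 0.10 and -0.06 to 0.09 on the log2 scale. Tgfbr3 (ENSMUSG00000029287, chromosome 5, 107106570 to 107289629, minus strand) encodes betaglycan, a co-receptor without a kinase that presents TGF-β, TGF-β2 above all, to the signalling receptors. It measured 6.30, 5.57 and 5.39 FPKM under the label Ad-scramble and 3.68, 4.33 and 4.45 FPKM under the label Ad-SPTBN1. The groups did not overlap, but their libraries were spread more widely than those of most members. Tgfbr3 fell by 0.39 (SE 0.08, adjusted p = 0.022). That call was lost without replicate 1 or 2 of either label (adjusted p of 0.0424 to 0.0664 over the 6 libraries left out in turn) and with no filter on low values (0.0762). The ratio of Tgfbr3 to Tgfbr2 was 0.177, 0.162 and 0.154 in the former group and 0.107, 0.123 and 0.123 in the latter.

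Bmpr1a, the type I receptor for BMP2 and BMP4, measured 19.1, 19.6 and 19.8 FPKM under the label Ad-scramble and 17.2, 17.3 and 16.7 FPKM under the label Ad-SPTBN1. The groups did not overlap, and Bmpr1a fell by 0.18 (SE 0.03, adjusted p = 0.0142). The call was lost without Ad-SPTBN1 replicate 3 (adjusted p = 0.0566; 0.0402 at the lowest of the 6). The type II receptor Bmpr2 measured 11.0 ± 0.463 and 10.7 ± 0.301 FPKM (adjusted p = 0.664). Of the activin-type receptors, Acvr1, which also serves BMPs, was nearly level at 20.9 ± 0.566 and 20.9 ± 0.654 FPKM, and the type II receptor Acvr2a was at 6.29 ± 0.568 and 6.50 ± 0.0690 FPKM. Acvrl1, a type I receptor known from endothelium, was at 16.8 ± 0.207 and 17.6 ± 0.248 FPKM, without overlap, and did not pass (adjusted p = 0.242). Acvr1b, the type I receptor of activin, was at 6.35 ± 0.244 and 5.37 ± 0.544 FPKM, also without overlap (adjusted p = 0.101, and 0.0302 with voom on recovered reads). Acvr2b rested on 25 to 62 reads per library and measured 0.833, 0.615 and 0.344 FPKM and 0.601, 0.633 and 0.772 FPKM in the 2 groups, so that its levels overlapped.

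Of the 4 secreted antagonists and follistatin-family genes, 1 rose and 1 fell. Fst (ENSMUSG00000021765, chromosome 13, 114452262 to 114458949, minus strand) encodes follistatin, which binds activins and blocks their access to receptors. Fst measured 53.2, 51.7 and 53.1 FPKM under the label Ad-scramble and 62.5, 59.5 and 64.6 FPKM under the label Ad-SPTBN1. All 3 of the latter lay above all 3 of the former, and Fst rose by 0.23 (SE 0.04, adjusted p = 0.00869). Inhba rose by more than Fst, and the ratio of Inhba to Fst was 0.765, 0.717 and 0.768 under the label Ad-scramble and 0.971, 0.966 and 0.919 under the label Ad-SPTBN1. Ratios of this kind are given as description, since an exact permutation of 3 against 3 libraries cannot give a p below 0.10.

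Fstl1, a secreted glycoprotein gene of mesenchymal cells and the most abundant member, measured 467.7, 470.7 and 484.9 FPKM and then 442.7, 434.3 and 433.3 FPKM. The groups did not overlap, and Fstl1 fell by 0.12 (SE 0.02, adjusted p = 0.0251), the smallest change among the calls. The call was lost when any 1 of the 6 libraries was left out (adjusted p of 0.0524 to 0.0905). Fstl3, which binds activins as follistatin does, was at 35.5 ± 3.80 and 39.3 ± 2.54 FPKM (adjusted p = 0.295). Its value is uncertain, since Prss57 lies opposite 47.3% of its exon bases. Grem1, an antagonist of BMPs, was at 3.13 ± 0.310 and 2.65 ± 0.167 FPKM, without overlap, and did not pass (adjusted p = 0.175).

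Among the signal-carrying SMADs, Smad2, Smad3 and Smad4 rose and none fell, while Smad1, Smad5 and Smad9 did not pass. Smad2, the partner of TGF-β and activin receptors, measured 15.8, 16.5 and 15.8 FPKM under the label Ad-scramble and 18.8, 18.4 and 17.8 FPKM under the label Ad-SPTBN1. Smad3, its relative that binds DNA directly, measured 16.1, 16.2 and 16.0 FPKM and then 17.6, 17.5 and 18.2 FPKM. Smad4, the common partner, measured 32.4, 30.9 and 32.1 FPKM and then 35.2, 34.3 and 34.6 FPKM. None of these genes overlapped between groups. On the log2 scale the rises were 0.18 ± 0.04, 0.14 ± 0.03 and 0.12 ± 0.03 (SE, n = 3 per group), with limma adjusted p of 0.0227, 0.0355 and 0.0427. These calls were among the least stable. Those of Smad3 and Smad4 were lost when any 1 of the 6 libraries was left out (adjusted p of 0.0709 to 0.116 and of 0.0784 to 0.124). The call of Smad2 was lost without replicate 1 or 3 of Ad-scramble and without replicate 1 or 2 of Ad-SPTBN1 (0.0373 to 0.0775 over the 6). With no filter on low values none of the 3 passed (0.0512, 0.0544 and 0.0815), and with voom on recovered reads all 3 did.

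The SMADs of the BMP branch were at 13.4 ± 0.550 and 13.8 ± 0.509 FPKM for Smad1, 10.7 ± 0.209 and 11.1 ± 0.166 FPKM for Smad5, and 2.59 ± 0.0753 and 2.43 ± 0.223 FPKM for Smad9. Their adjusted p were 0.621, 0.461 and 0.576. Smad5 did not overlap between the groups, while Smad1 and Smad9 did. The 95% interval of the log2 difference ran from -0.06 to 0.14 for Smad1, from -0.04 to 0.13 for Smad5 and from -0.22 to 0.09 for Smad9, so that those of Smad1 and Smad5 hold changes as large as that of Smad4. The summed FPKM of Smad2 and Smad3 was 1.17, 1.22 and 1.22 times that of Smad1, Smad5 and Smad9 under the label Ad-scramble and 1.37, 1.30 and 1.30 times under the label Ad-SPTBN1. These ratios did not overlap between the groups, but they rest on the same values as the calls of Smad2 and Smad3 and are description only.

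Of the 9 inhibitors that act in the cell or its membrane, Smurf1 rose, Smad6 fell and 7 did not pass. Smurf1 (ENSMUSG00000038780, chromosome 5, 144876495 to 144965847, minus strand) encodes a ubiquitin ligase that marks BMP-branch SMADs and, with inhibitory SMADs, receptors for breakdown. Smurf1 measured 13.0, 12.7 and 12.7 FPKM under the label Ad-scramble and 18.3, 17.3 and 19.0 FPKM under the label Ad-SPTBN1. The 3 libraries of the former group were nearly equal and all of the latter lay far above them. The mean rose by 42.3%, which is 0.48 ± 0.04 on the log2 scale (SE, n = 3 per group, adjusted p = 0.00114). Its relative Smurf2 was at 22.1 ± 0.689 and 23.5 ± 1.09 FPKM (adjusted p = 0.26). The ratio of Smurf1 to Smurf2 was 0.567 to 0.592 under the label Ad-scramble and 0.740 to 0.824 under the label Ad-SPTBN1.

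Smad6, which blocks the BMP branch above all and is itself induced by BMPs, measured 70.8, 75.3 and 68.9 FPKM and then 60.4, 62.7 and 60.6 FPKM. The groups did not overlap, and Smad6 fell by 0.22 (SE 0.04, adjusted p = 0.0136). The call was lost without Ad-SPTBN1 replicate 3 (adjusted p = 0.052; 0.0191 at the lowest of the 6). Smad7, which blocks both branches, was at a like level, 68.8 ± 5.28 and 63.9 ± 3.42 FPKM, and overlapped between the groups (adjusted p = 0.332). The co-repressors Ski and Skil were at 63.7 ± 0.835 and 61.2 ± 1.67 FPKM and at 41.7 ± 1.07 and 38.9 ± 0.831 FPKM. Neither overlapped between the groups and neither passed (adjusted p = 0.273 and 0.0986, and 0.028 for Skil with voom on recovered reads). Bambi, a receptor decoy without a kinase, was at 17.6 ± 0.731 and 16.1 ± 0.428 FPKM, also without overlap (adjusted p = 0.113). Tgif1, another co-repressor, was at 8.89 ± 0.226 and 8.84 ± 0.505 FPKM, and Pmepa1, a TGF-β-induced membrane protein that holds back SMADs, at 116.3 ± 2.55 and 113.0 ± 2.11 FPKM (adjusted p = 0.933 and 0.403).

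The 4 Id genes encode helix-loop-helix proteins that bind partner transcription factors without binding DNA and are classic targets of BMP signalling. Id2 and Id3 fell, and Id1 and Id4 did not pass. All 4 had a log2 difference below 0, as had 59.1% of the tested members and 49.3% of all tested genes. Id3, the most abundant, measured 79.1, 79.4 and 77.7 FPKM under the label Ad-scramble and 71.1, 70.6 and 70.4 FPKM under the label Ad-SPTBN1. Both groups were tight and did not overlap, and Id3 fell by 0.15 (SE 0.02, adjusted p = 0.00968). Id2 measured 61.7, 61.6 and 63.2 FPKM and then 58.2, 53.5 and 56.2 FPKM, likewise without overlap, and fell by 0.15 (SE 0.04, adjusted p = 0.0395). The call of Id2 was lost without any library but Ad-SPTBN1 replicate 1 (adjusted p of 0.0405 to 0.102). Id1 was at 55.1 ± 3.65 and 49.9 ± 1.06 FPKM, with 1 library of each group at 51.1 FPKM (adjusted p = 0.119, and 0.038 without Ad-scramble replicate 1). Id4 was at 8.95 ± 0.685 and 8.36 ± 0.390 FPKM (adjusted p = 0.411). Id3 made up 37.5% to 39.3% of the summed FPKM of the 4 genes in one group and 37.6% to 38.9% in the other.

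Promoter windows from RefSeq (build GRCm38.p6, 250 bases before and 50 from the annotated start on) were found for 31 members, 9 of them among the 14 called. SMAD proteins are known to bind CAGAC boxes and the GC-rich sequence GGCGCC, and both were searched on both strands. CAGAC or its complement occurred in 2 of the 9 windows, those of Id3 and Smurf1, against 49.6% of all 32851 windows. GGCGCC, which reads the same on both strands, occurred in 2 of the 9, those of Id2 and Bmpr1a, against 11.9% of all windows. Such matches describe the letters and are not evidence of binding. Id2, Id3 and Smad6 are known BMP targets among the members that were called lower, while the targets Id1 and Id4 were not called. The windows of Id2, Id3 and Smad6 are shown with the matched motifs in capitals, and that of Smad6 holds neither. They lie at chr12:25096043-25096342 on the minus strand, chr4:136143572-136143871 on the plus strand and chr9:64022010-64022309 on the minus strand, and read 5′ to 3′:
Id2: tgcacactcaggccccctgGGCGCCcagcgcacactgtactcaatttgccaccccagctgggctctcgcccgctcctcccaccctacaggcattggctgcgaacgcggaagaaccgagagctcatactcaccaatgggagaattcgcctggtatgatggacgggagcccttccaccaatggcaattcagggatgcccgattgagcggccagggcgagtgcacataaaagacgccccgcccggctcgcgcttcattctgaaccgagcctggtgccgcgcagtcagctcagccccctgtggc
Id3: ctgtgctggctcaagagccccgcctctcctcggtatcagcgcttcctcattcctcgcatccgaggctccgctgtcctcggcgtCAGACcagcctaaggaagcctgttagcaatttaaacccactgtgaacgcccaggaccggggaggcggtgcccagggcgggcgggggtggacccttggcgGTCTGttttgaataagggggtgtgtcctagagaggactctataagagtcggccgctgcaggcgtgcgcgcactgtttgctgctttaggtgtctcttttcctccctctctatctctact
Smad6: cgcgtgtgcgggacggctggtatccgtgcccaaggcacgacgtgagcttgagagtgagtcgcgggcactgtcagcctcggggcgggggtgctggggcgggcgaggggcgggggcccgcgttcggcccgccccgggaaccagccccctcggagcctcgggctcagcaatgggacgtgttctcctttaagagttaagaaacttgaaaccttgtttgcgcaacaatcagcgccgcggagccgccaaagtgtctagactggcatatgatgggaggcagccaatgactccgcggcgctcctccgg

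For the largest increases the windows of Smurf1 (chr5:144965781-144966080, minus strand) and Inhba (chr13:16011601-16011900, plus strand) are shown in the same way. Smurf1, which rose, holds 2 CAGAC boxes, as many as Id3, which fell, and Inhba holds neither motif. The start in the window lies 325 bases inside the deposited gene start for Id3, 1048 bases for Id2 and 17 bases for Smurf1, and at that start for Smad6 and Inhba.
Smurf1: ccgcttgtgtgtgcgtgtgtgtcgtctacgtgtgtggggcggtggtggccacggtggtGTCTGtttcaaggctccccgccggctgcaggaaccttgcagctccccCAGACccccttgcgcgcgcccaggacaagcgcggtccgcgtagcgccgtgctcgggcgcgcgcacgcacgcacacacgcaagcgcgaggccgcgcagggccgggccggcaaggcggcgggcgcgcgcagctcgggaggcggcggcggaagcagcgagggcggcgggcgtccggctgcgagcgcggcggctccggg
Inhba: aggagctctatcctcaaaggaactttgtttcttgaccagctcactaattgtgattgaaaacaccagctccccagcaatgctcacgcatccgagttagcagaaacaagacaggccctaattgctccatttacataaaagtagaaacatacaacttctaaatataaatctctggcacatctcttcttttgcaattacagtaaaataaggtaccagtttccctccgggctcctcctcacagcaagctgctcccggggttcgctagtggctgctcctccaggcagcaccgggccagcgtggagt

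Snai1, Snai2 and Twist1, transcription factors of the change from epithelial to mesenchymal state that TGF-β can induce, gave 0 calls of 3 with limma. Snai1 measured 34.5, 36.0 and 35.0 FPKM and then 29.2, 34.4 and 31.9 FPKM, and the groups did not overlap by a margin smaller than the spread within the second. It did not pass (log2 difference -0.14 ± 0.06, adjusted p = 0.166). Snai2 was at 15.7 ± 0.282 and 15.7 ± 0.182 FPKM and Twist1 at 25.0 ± 1.71 and 23.1 ± 1.10 FPKM (adjusted p = 0.974 and 0.256). Snai1 alone of the 3 had an unadjusted p under 0.05, and voom on recovered reads called 0 of them.

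Beyond the 45 members, 7 lists of other genes of the pathway held 170 genes, of which 125 were tested, 11 rose and 19 fell. The called genes were 24.0% of those tested, beside 11.0% of all tested genes and 15.1% of genes averaging 5 FPKM or more. These lists were chosen with earlier results of these data known, so the share is description only. Their median log2 difference was -0.02. Some genes are on more than 1 list. Calls of these genes that were lost without 1 library are named as such below.

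Of 40 target genes of TGF-β, 5 rose and 7 fell, with a median of -0.03 on the log2 scale. The interleukin gene Il11 measured 6.90, 7.99 and 7.08 FPKM and then 12.2, 13.1 and 11.9 FPKM, without overlap, and rose by 0.69 on the log2 scale (SE 0.06, adjusted p = 0.00141). It rested on 272 to 515 reads per library. In the same direction the cell cycle inhibitor Cdkn1a rose by 0.58 and the protease inhibitor Timp1 by 0.31. The matrix gene Cilp fell from 4.74 to 3.02 FPKM, by 0.51 on the log2 scale (SE 0.05, adjusted p = 0.00231). Lmcd1 fell by 0.33, and Comp, another matrix gene, fell by 0.35 with a call that was lost without any library but Ad-SPTBN1 replicate 1 (adjusted p of 0.0376 to 0.122).

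Of 15 tested BMP target genes, 1 rose and 3 fell. The cardiac transcription factor gene Nkx2-5 rose by 0.46 (from 1.66 to 2.65 FPKM, adjusted p = 0.0223), a call lost without replicate 1 of either group, Ad-scramble replicate 2 or Ad-SPTBN1 replicate 3 (adjusted p of 0.0392 to 0.0736). Nkx2-5 rested on about 44 to 94 recovered reads per library, and the part of cell types in its rise was not tested. The transcription factor genes Hey1, Tbx20 and Atoh8 fell by 0.29, 0.20 and 0.16 (adjusted p = 0.0491, 0.0152 and 0.0395). The call of Hey1 was lost without any library but Ad-SPTBN1 replicate 2, that of Atoh8 without any but Ad-scramble replicate 3, and that of Tbx20 without replicate 1 of either label or replicate 3 of Ad-SPTBN1 (0.0179 to 0.136, 0.0317 to 0.118 and 0.0235 to 0.0584).

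**Figure D4:**
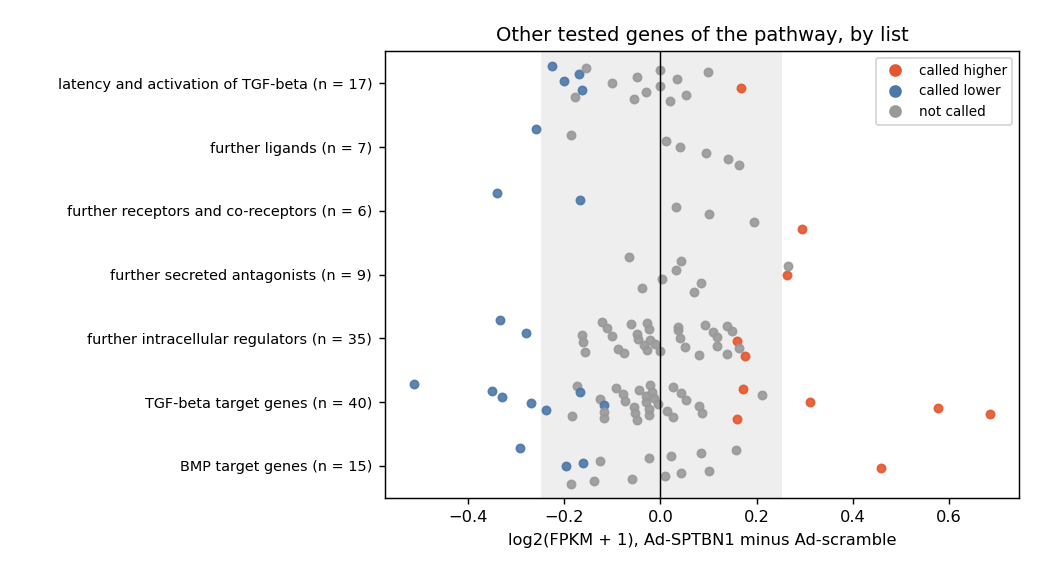
Log2(FPKM + 1) difference, Ad-SPTBN1 minus Ad-scramble, of each tested gene on the 7 lists of other pathway genes, coloured by call, with the grey band from the 5th to the 95th percentile of all tested genes. Il11 (0.69) is the highest point and Cilp (-0.51) the lowest, and called genes lie on both sides of 0.

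Among 17 tested genes of TGF-β latency and activation, 1 rose and 4 fell. Ltbp1, a protein that tethers latent TGF-β to the matrix, rose by 0.17 (adjusted p = 0.0193, lost without any library but Ad-SPTBN1 replicate 2). Emilin1, Itgb5 and Fmod fell by 0.22, 0.20 and 0.17 (adjusted p = 0.00441, 0.00676 and 0.0461), and the call of Fmod was lost without any 1 of the 6 libraries (0.0649 to 0.133). Of 7 other tested ligands Gdf6 alone was called: it fell from 106.6 to 89.0 FPKM, by 0.26 (adjusted p = 0.00183), and was more abundant per length than any ligand among the members. Of 6 other receptors and co-receptors, Nrp1 rose by 0.29, and Rgma, a BMP co-receptor, and its partner Neo1 fell by 0.34 and 0.17 (adjusted p = 0.00725, 0.00839 and 0.031). The call of Neo1 was lost without any library but Ad-SPTBN1 replicate 1 (0.0462 to 0.0999).

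Of 9 other secreted antagonists Nbl1, which binds BMPs, rose by 0.26 (adjusted p = 0.0218), a call lost without any library but Ad-SPTBN1 replicate 1 (0.0168 to 0.0753). Of 35 intracellular regulators 2 rose and 2 fell. Ctdsp2, a phosphatase of SMADs, fell by 0.33, and Tab2, an adaptor of the kinase TAK1 that links receptors to a route without SMADs, fell by 0.28 (adjusted p = 0.00305 and 0.0029). The ubiquitin ligase gene Nedd4l rose by 0.18 and the SMAD inhibitor Ldlrad4 by 0.16 (adjusted p = 0.0471 and 0.0291). Both calls were lost without any 1 of the 6 libraries (0.0901 to 0.135 and 0.062 to 0.0977). Ldlrad4 and Ctdsp2 share 49.0% and 12.5% of their 50-base transcript words with other genes, so their values are uncertain.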

How the data were processed

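RNA libraries were made with a NEBNext Ultra kit from TRIzol-extracted total RNA, per the labels' protocols. The authors deposited 1 table of FPKM values with 1 column per library. The genome build is GRCm38 (mm10), per the submitters' processing notes. Neither aligner nor counting tool nor annotation release is named in the sources used here, and how strand was handled is not stated there. Columns were assigned to libraries by the sample number in the labels.

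The deposited FPKM values, after adding 1 and taking log2, were fitted with limma 3.58.1 (R 4.3.3, trend in the prior variance, no rescaling) across 12608 genes averaging 1 FPKM or more. Adjustment was by Benjamini-Hochberg. Multiplying the FPKM values by GENCODE M21 exon lengths and a library total gave back reads. The total was fitted for the largest share of whole values, so that share is not an independent check. Of values above 0, 95.3% to 95.7% were whole within 0.1 read, and 41 of the 45 members were whole in all 6 libraries. The reads of Fst, Fstl1, Smad2 and Bambi are therefore approximate. Low genes carry a larger counting error. No 2 libraries of a group agreed within counting noise (chi-square per gene 2.74 to 4.09).

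The members and gene lists were chosen with earlier results of these data known. All members may be named; of other lists, up to 3 called genes in each direction by size, and of cell type markers the most abundant. Alternatives were other pseudocounts, filters, scalings, variance models, library weights, a replicate block, voom on recovered reads, and leaving out each library.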

Additional observations from a re-analysis of the deposited data

How the results depend on the processing

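In all 17 alternatives tried, none of the 14 called members changed direction. The 6 members Bmp4, Fst, Id3, Inhba, Smurf1 and Tgfb3 kept their call in all of them. With no filter on low values (every gene of the table tested), 665 genes were called (334 higher, 331 lower), 8 members (3 higher, 5 lower) and 16 other pathway genes, with 1 receptor, 1 secreted antagonist, 0 signal-carrying SMADs and 1 Id gene. With a minimum of 5 FPKM 13 members were called (6 higher, 7 lower), with 1 receptor, since Tgfbr3 fell below the minimum. With quantile normalization 13 members were called (6 higher, 7 lower), 1 of them an Id gene. Without a trend in the variance 10 members were called (4 higher, 6 lower), with 1 secreted antagonist, 1 signal-carrying SMAD and 1 Id gene. With voom on recovered reads 2146 genes (1084 higher, 1062 lower), 18 members (6 higher, 12 lower) and 50 other pathway genes were called. Of these members 5 were ligands. The cause of these shifts was not tested. With 1 library left out, the counts were 622 to 864 genes (302 to 441 higher, 320 to 438 lower), 8 to 9 members (3 to 4 higher, 4 to 6 lower), 1 to 2 receptors, 1 to 1 secreted antagonists, 0 to 1 SMADs, 1 to 2 inhibitors, 1 to 2 Id genes and 15 to 20 other pathway genes.

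The replicate numbers are shared between the groups, but same-numbered libraries did not deviate together over all tested genes (correlations 0.00586, -0.0338 and 0.0104). Such correlations cannot show whether the cultures were paired, and the labels do not say. With the replicate block 730 genes (369 higher, 361 lower), 7 members (3 higher, 4 lower) and 15 other pathway genes were called, with 0 receptors, 1 secreted antagonist, 0 SMADs and 1 Id gene. Not every library correlated best with its own number.

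Among members that were not called, 9 changed sign near 0. Acvr1 was at -0.000392 with median-of-ratios scaling, -0.0037 with upper-quartile scaling, -0.0045 with quantile normalization and -0.0064 with library weights. With 1 library left out the log2 differences ran from -0.022 to 0.020 for Acvr1, -0.016 to 0.097 for Acvr2a, -0.00076 to 0.053 for Bmp1, -0.023 to 0.052 for Inhbb, -0.014 to 0.010 for Snai2, -0.028 to 0.0043 for Tgfb2, -0.011 to 0.042 for Tgfbr1, -0.0053 to 0.029 for Tgfbr2 and -0.046 to 0.028 for Tgif1.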
